A study of Saccharomyces cerevisiae with 3 samples.

Results

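The comparison described here is the low-temperature response of Saccharomyces cerevisiae, the log2 level of every gene on the array of cells held at 15 °C minus its level on the array of the 24 °C control. Its members are all genes on those arrays, 6270 genes measured by 6337 rows, and 2 of the 3 arrays of the series. The low-temperature culture was kept for 5 h at 15 °C under normal atmospheric pressure, given as 0.1 MPa, and the control grew at 0.1 MPa and 24 °C. The remaining array holds cells kept for 5 h at 25 MPa and 24 °C, and its values against the same control are given only beside those of the cold. All samples are labelled BY4742, a haploid laboratory strain of mating type alpha that lacks working HIS3, LEU2, LYS2 and URA3 genes. Equal amounts of RNA from 3 cultures were pooled for each condition, so each condition has 1 array, no difference could be tested, and every value below describes these arrays. No 5 h incubation is stated for the control, so the effect of the lower temperature and that of the added time in culture cannot be told apart. Other text among the labels gives a different strain and 30 °C, in conflict with the titles and the design.

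In yeast cells moved below their optimal temperature, membranes stiffen, RNA structures become more stable, and protein folding and translation slow down. Cells answer with fatty acid desaturation, cold-shock wall mannoproteins of the Tip1 and Tir type, and, after hours rather than minutes, the general stress programme of the transcription factors Msn2 and Msn4. That programme builds the storage carbohydrates glycogen and trehalose, small heat shock proteins and antioxidant enzymes. Growth-related genes for ribosome assembly, translation and amino acid supply usually move the other way in stressed yeast.

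Among alpha-specific genes, which this mating type should express, MF(ALPHA)1, encoding the pheromone alpha factor, had log2 levels of 12.89 in the cold and 13.43 in the control. Of 6 a-specific genes, 4 were above mismatch on neither array, MFA1, MFA2, BAR1 and STE6, although MFA2 stood at 9.06 in the cold and 9.06 in the control. The other two differed, with STE2 above mismatch on both arrays at 5.70 in the cold and 5.38 in the control and AGA2 on the control array at 6.15 in the cold and 6.23 in the control. LEU2, LYS2 and URA3 were above mismatch on neither array. Their levels in the cold and the control still differed, 7.58 and 6.01 for LEU2, 3.75 and 4.14 for LYS2, and 4.00 and 5.17 for URA3. The LEU2 log2 ratio of 1.57 shows that signal not above mismatch can give a ratio past 1.5-fold. HIS3 was above mismatch on both, its allele in this strain being a partial deletion. "Above mismatch" means that the 15 perfect-match probes of a gene exceeded their mismatch partners by a one-sided limit of 5%. The median log2 level was 6.98 on the low-temperature array and 6.43 on the control array, and 60.5% and 54.2% of rows were above mismatch.

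Of 4877 genes whose higher level reached the 25th percentile of its array, 1695 were higher in the cold by more than 1.5-fold, which is 34.8% of them. A further 468 were lower past 1.5-fold, or 9.6%. The design text names 1.5-fold as its threshold. The median log2 ratio over all genes was 0.26 (SD over genes 0.73) with the deposited RMA levels and 0.41 with the mean perfect-match intensities, so each list median below is to be read against those values. Whether the arrays were normalized together is not stated. Their medians differ by 0.55, so the deposited levels do not share one distribution. The split into higher and lower genes moves with the scaling: it was 717 against 1518 with each array centred on its own median, 991 against 969 after quantile normalization of the gene levels, and 2259 against 113 with perfect-match intensities. Centring subtracts 0.55 from every log2 ratio, so any ratio between 0 and that value turns negative there. Of the 1695 higher genes 1353 were also more than 1.5-fold higher by perfect-match intensity. Of the 468 lower genes 382 had a perfect-match ratio below 0 and 92 were past 1.5-fold. Among genes named here, 118 of 122 with a ratio past 1.5-fold on the high side stayed past it by perfect-match intensity, and 38 of 80 on the low side did. Lower folds below are RMA values and carry that limit. Where the dimmer of the 2 levels was not above mismatch, a fold is given with "at least", which marks that fact and no guaranteed minimum, since other scalings can give a smaller value. Where neither level was above mismatch, no fold is given. A fold without a direction beside it means higher in the cold.

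**Figure D1:**
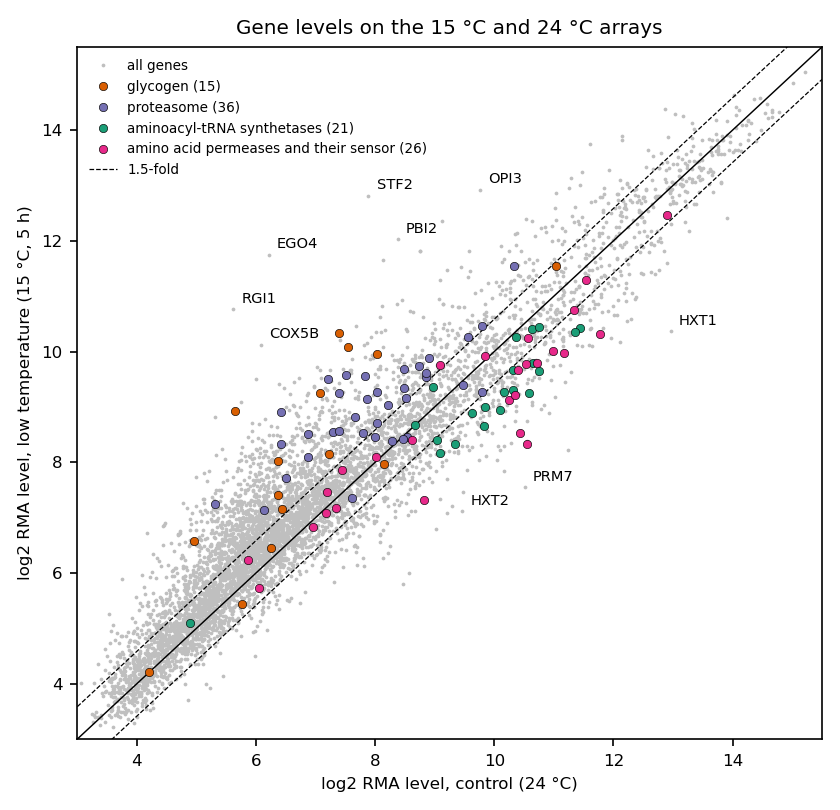
Log2 RMA level of each of 6270 genes on the control array (24 °C, horizontal) and on the low-temperature array (15 °C for 5 h, vertical), with 4 gene lists in colour, the line of equal levels, and dashed lines at 1.5-fold. Glycogen and proteasome genes lie mostly above the upper dashed line, and aminoacyl-tRNA synthetase genes mostly below the lower one.

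Small regulators of energy metabolism and enzymes of glycogen turnover were among the genes with high ratios. Among 7 genes on a mixed list of such regulators, which also holds PBI2 and EGO4, 5 were higher and 0 lower. RGI1, named for its role in energy metabolism under respiratory growth, had log2 levels of 10.77 in the cold and 5.62 in the control (35.5-fold). Its paralogue RGI2 was above mismatch on neither array. STF1, which like INH1 encodes an inhibitor of the mitochondrial ATP synthase, stood at 10.46 in the cold and 7.67 in the control (6.91-fold). STF2, whose product stabilises the inhibited enzyme, stood at 12.81 in the cold and 7.88 in the control (30.5-fold). EGO4, on the same list, had the highest ratio of any gene past the level limit, with levels of 11.75 in the cold and 6.21 in the control (at least 46.6-fold). INH1 itself lay at 9.71 in the cold and 9.85 in the control, inside 1.5-fold.

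Among 15 glycogen genes, 10 lay above the 1.5-fold limit and 0 below it, around a median log2 ratio of 1.04 (1.15 by perfect-match intensity). Both synthesis and breakdown were represented. GSY2, the main glycogen synthase, had levels of 9.95 in the cold and 8.03 in the control, which differ by 1.92. GSY1, the minor synthase, was at 8.92 in the cold and 5.64 in the control (at least 9.74-fold). GLC3, the branching enzyme, stood at 9.26 in the cold and 7.07 in the control. GLG1, a self-glucosylating primer of the granule, stood at 8.03 in the cold and 6.37 in the control, where the control level was not above mismatch. GPH1, the phosphorylase that releases glucose-1-phosphate, had the highest ratio among members above mismatch on both arrays, with levels of 10.34 in the cold and 7.40 in the control (7.69-fold). GDB1, the debranching enzyme, was at a smaller 0.93. PGM2, the major phosphoglucomutase, which connects glucose-6-phosphate to this pathway, had 10.09 and 7.55 in the cold and the control (5.81-fold), whereas the minor form PGM1 had a ratio of -0.18 and UGP1, which makes UDP-glucose, one of 0.51.

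In the trehalose pathway the 3 members past 1.5-fold belong to the synthase complex. TPS1, the synthase, stood at 11.06 in the cold and 9.67 in the control (2.62-fold). TPS2, the phosphatase, stood at 9.36 in the cold and 8.20 in the control (2.23-fold). TSL1, a regulatory subunit, stood at 8.27 in the cold and 6.98 in the control (2.46-fold). TPS3, the other regulatory subunit, had 0.39. The trehalases NTH1 and NTH2 had 0.41 and 0.34, inside 1.5-fold. Across all 7 members the median was 0.41.

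Most stress genes of the Msn2 and Msn4 type were higher. Among 35 genes outside the carbohydrate and chaperone lists, 26 lay above the 1.5-fold limit and 0 below it, around a median of 1.00. A ratio above the all-gene median was seen in 33 of them. PNC1, the nicotinamidase that feeds NAD salvage, had levels of 11.48 in the cold and 9.21 in the control (4.82-fold). RTN2, a reticulon of the endoplasmic reticulum, stood at 10.39 in the cold and 8.17 in the control (4.66-fold). TFS1, an inhibitor of carboxypeptidase Y, stood at 11.45 in the cold and 9.60 in the control (3.60-fold). PIR3, an O-glycosylated wall protein, was at 10.63 in the cold and 8.80 in the control. At the other end of the list DDR2, a multistress gene, lay at 13.29 in the cold and 13.31 in the control, bright on both arrays with no difference past 1.5-fold. MSN2 itself, the gene of the factor, had a ratio of 0.31.

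Some small heat shock proteins were higher as well. HSP12, a membrane-associated stress protein, had log2 levels of 13.74 in the cold and 11.61 in the control (4.37-fold). HSP26 had levels of 9.84 in the cold and 8.63 in the control (2.30-fold). HSP42, the other small aggregate-binding chaperone, had levels of 8.88 in the cold and 7.27 in the control (at least 3.05-fold). HSP104, the disaggregase, stood at 9.88 in the cold and 7.97 in the control. The list held 10 measured genes, of which 5 were higher and 0 lower. The cytosolic Hsp70 and Hsp90 systems were divided, with 9 of 23 members higher and 5 lower. The higher members included co-chaperones. SBA1 (p23) stood at 10.25 in the cold and 8.84 in the control, and SIS1, an Hsp40, at 9.71 in the cold and 8.46 in the control. STI1, which bridges Hsp70 and Hsp90, had a ratio of 1.08. On the lower side, grouped after their values were seen, were 4 genes of the ribosome-associated chaperone system, which folds nascent chains, with ratios of -0.69 for SSB1, -0.78 for SSB2, -1.03 for ZUO1 and -1.46 for SSZ1. Their perfect-match ratios lay between -0.66 and 0.14, so SSB1 and SSB2 were above 0 on that scale. SSB1 and SSB2 are near-identical and their probes may read both transcripts. In mitochondria MGE1, the nucleotide exchange factor of Hsp70, stood at 9.46 in the cold and 7.59 in the control (3.64-fold), while the folding machines it serves lay inside 1.5-fold, SSC1 at -0.17 and HSP60 at -0.35.

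Among 32 antioxidant genes, 14 lay above the 1.5-fold limit and 1 below it, and 9 and 6 with the arrays centred. GRX1 and GRX2, glutaredoxins that use glutathione, stood at 9.37 in the cold and 6.97 in the control for GRX1 and at 12.39 in the cold and 10.54 in the control for GRX2. CTT1, the cytosolic catalase and a classical Msn2 and Msn4 target, had 9.81 and 8.40 in the cold and the control (2.66-fold). PRX1, the mitochondrial peroxiredoxin, had levels of 10.24 in the cold and 8.99 in the control (2.37-fold). Major enzymes of the list were inside 1.5-fold. SOD1, the copper-zinc superoxide dismutase, had a ratio of 0.12, TSA1, the main cytosolic peroxiredoxin, -0.36, and TRR1, thioredoxin reductase, -0.58. CCS1, the copper chaperone for SOD1, was the member past 1.5-fold on the low side, at 7.78 and 8.48, with a cold level not above mismatch.

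Among genes that mark cold shock, 9 of 13 were higher and 1 lower. Of the 8 that were above mismatch on both arrays, 4 were higher and 1 lower. OLE1, the only fatty acid desaturase of this yeast, had 12.95 and 11.84 in the cold and the control (2.15-fold). TIP1, a cold-induced wall mannoprotein, stood at 13.90 in the cold and 12.14 in the control (3.37-fold). NSR1, a nucleolar protein known from other work for its rise in cold-shocked cells, was the lower member, with levels of 10.09 in the cold and 11.47 in the control (2.60-fold lower). Its perfect-match ratio of -0.55 had the same sign. LOT5, also named for low-temperature response, lay at -0.21.

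The values of the cold and of high pressure were set side by side for these genes. Both use the single control array, so a low or high control value enters both ratios, and no correlation or overlap is given. Some stress genes that were higher in the cold were inside 1.5-fold of the control or lower under pressure. HSP12 had a log2 ratio of 2.13 in the cold and 0.19 under pressure, HSP26 of 1.20 and -1.01, and CTT1 of 1.41 and -0.71. RTN2 stood at 2.22 and -0.45, GRE1, a hydrophilin induced by desiccation, at 1.08 and -1.18, and ALD3, a cytosolic aldehyde dehydrogenase, at 0.74 and -1.47. DDR2, which was not higher in the cold, had -0.02 there and -2.80 under pressure. Wall genes of the Tir type showed the other order, TIR1 with 3.54 and 4.94, TIR3 with 0.94 and 2.71, and TIR4 with 0.04 and 2.95; for TIR1 and TIR3 the control level was not above mismatch. Over the Msn2 and Msn4 list the median was 1.00 in the cold and 0.27 under pressure, with 26 and 13 members higher past 1.5-fold. With 1 array of each, whether the conditions differ in these genes could not be tested.

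**Figure D2:**
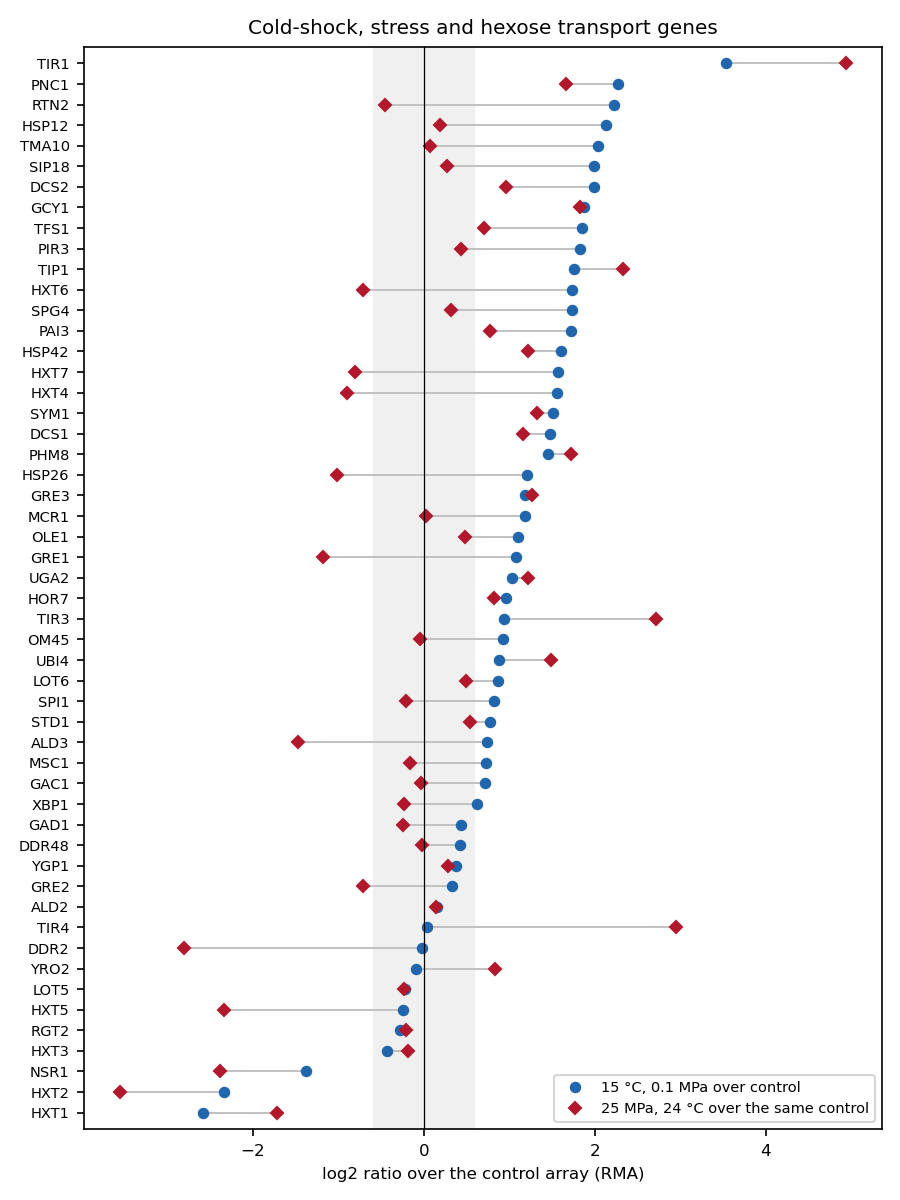
Log2 ratio over the control array for 52 genes of the cold-shock, Msn2 and Msn4 stress and hexose transporter lists that were above mismatch on the low-temperature or control array, ordered by the ratio in the cold. Circles are the low-temperature array (15 °C, 0.1 MPa), diamonds the high-pressure array (25 MPa, 24 °C), and the grey band is 1.5-fold: HSP12, RTN2, HSP26, HXT6, HXT7 and HXT4 have circles to the right of the band and diamonds inside or left of it.

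Of 21 hexose transporter and sensor genes 6 were higher and 2 lower, and 8 were above mismatch on both arrays. HXT1, the low-affinity transporter used at high glucose, was among the lowest ratios of all genes, with levels of 10.37 in the cold and 12.96 in the control (6.0-fold lower). HXT2, a moderate-affinity form, stood at 7.12 in the cold and 9.46 in the control (5.07-fold lower). HXT3, the other low-affinity form, stood at 13.24 in the cold and 13.67 in the control, inside 1.5-fold. The high-affinity transporters HXT6 and HXT7, used when glucose is low, stood at 12.37 in the cold and 10.63 in the control for HXT6 (3.32-fold) and 12.58 in the cold and 11.02 in the control for HXT7 (2.96-fold). These 2 genes are near-identical and cannot be told apart here. HXT4, which is also repressed by high glucose, was at 11.93 in the cold and 10.37 in the control (2.95-fold). Under pressure HXT6, HXT7 and HXT4 had ratios of -0.71, -0.80 and -0.90, and HXT1 one of -1.72.

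The main glycolytic enzymes stayed close to the control by RMA, and several of their alternative forms did not. For the 13 major forms from HXK2 to ADH1 the log2 ratio lay between -0.40 (PFK2) and 0.23 (GPM1), with a median of -0.14 that is 0.53 by perfect-match intensity. HXK1, a hexokinase repressed by glucose, had levels of 11.81 in the cold and 8.75 in the control (8.37-fold). HXK2, the form of glucose-grown cells, had 12.34 in the cold and 12.52 in the control. GLK1, glucokinase, stood at 12.37 in the cold and 11.04 in the control (2.53-fold). EMI2, its paralogue, stood at 10.62 in the cold and 8.09 in the control (at least 5.78-fold). ADH5, a minor alcohol dehydrogenase, was at 10.41 in the cold and 8.51 in the control (3.74-fold). PFK26, which makes the activator fructose-2,6-bisphosphate, stood at 6.41 in the cold and 5.20 in the control with a control level not above mismatch.

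This contrast between forms was counted over 33 paralogue pairs in which 1 member is used by growing cells on glucose and the other is known from stress, low oxygen or glucose exhaustion. In 32 measured pairs the stress, hypoxic or glucose-repressed form had the higher log2 ratio in 29, with a median difference of 1.17, and in 25 of 32 by perfect-match intensity, with a median difference of 0.43. The difference passed 1.5-fold in favour of that form in 22 pairs and in favour of the other in 1. Among the 25 pairs whose stress form was above mismatch in the cold and whose growth form was above mismatch on both arrays, the counts were 22 by RMA and 21 by perfect-match intensity. Pairs share members, since HXK2 stands in 3 of them, and the count is a description of listed genes. Except for HMG2, GPD1 and TRX2, the stress form was the dimmer member on the control array. By RMA, dim genes had higher ratios than bright ones over the whole array, as given below. The part of signal level in the pair count was not tested. Under pressure, over the same control, the stress form had the higher ratio in 22 of 32 pairs, with a median difference of 0.28.

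**Figure D3:**
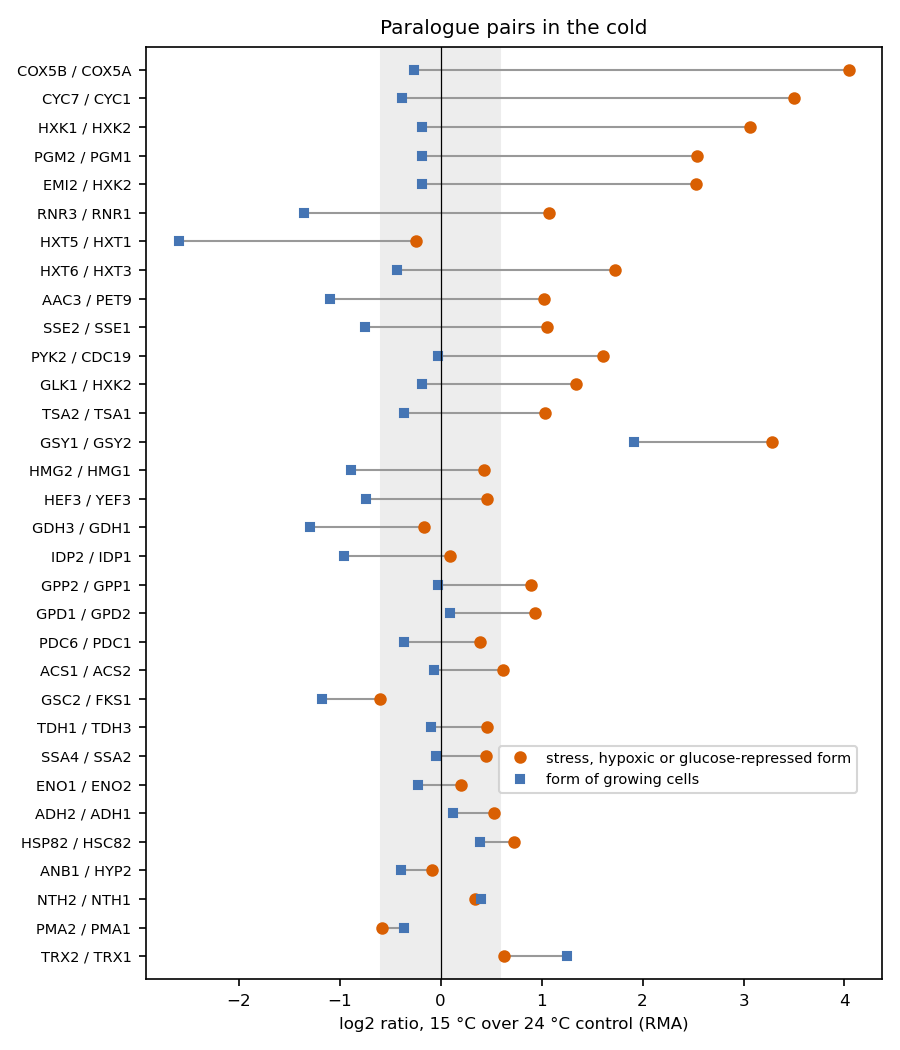
Log2 ratio of the 15 °C array over the 24 °C control for both members of 32 paralogue pairs, ordered by the difference. Circles are the stress, hypoxic or glucose-repressed form and squares the form of growing cells; the circle lies to the right in 29 pairs, and TRX2 with TRX1, PMA2 with PMA1 and NTH2 with NTH1 are the exceptions.

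The isoforms of cytochrome c are one such pair. CYC7, the hypoxic isoform, had levels of 8.82 in the cold and 5.32 in the control (at least 11.3-fold). CYC1, the aerobic isoform, had 6.27 in the cold and 6.66 in the control. The cytochrome oxidase subunit COX5B, again the hypoxic form, stood at 10.12 in the cold and 6.08 in the control (at least 16.5-fold). COX5A, its aerobic partner, had 8.83 in the cold and 9.09 in the control. Other pairs with members above mismatch were SSE2 and SSE1, both Hsp110 chaperones, with ratios of 1.05 and -0.75, TSA2 and TSA1, both peroxiredoxins, with 1.03 and -0.36, and HMG2 and HMG1, both HMG-CoA reductases, with 0.43 and -0.89. IDP2, the cytosolic isocitrate dehydrogenase of respiring cells, had 0.09 and IDP1, the mitochondrial form, -0.95. In the clearest exception TRX1 had a ratio of 1.25 and TRX2, the thioredoxin induced by oxidants, 0.63.

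Nuclear genes of respiration were higher in assembly and in several small subunits. Among 25 cytochrome oxidase assembly genes 17 lay above the 1.5-fold limit and 0 below it. The median was 0.98, and 7 of the genes were above mismatch on both arrays. COX17, the copper chaperone of the enzyme, had levels of 9.10 in the cold and 5.75 in the control (at least 10.2-fold). COX16, an assembly factor of the inner membrane, had levels of 8.01 in the cold and 5.83 in the control (4.53-fold). COX15, which makes heme A, had levels of 10.25 in the cold and 9.33 in the control (1.89-fold). Of 24 genes of complexes III and IV and their regulators, 12 were higher and 0 lower. The split was 7 higher and 6 lower with the arrays centred. It was 9 higher and 3 lower with a trend on gene length, described below, taken out. COX7, a small subunit of complex IV, stood at 11.34 in the cold and 9.55 in the control (3.44-fold). QCR8, a small subunit of complex III, was at 8.80 in the cold and 7.37 in the control (2.69-fold). COR1, a large core subunit of complex III, was inside 1.5-fold at -0.33. HAP4, the activating subunit of the respiratory transcription factor, had a ratio of 0.12.

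Of 17 ATP synthase genes 8 were higher and 3 lower by RMA, and 11 higher and 0 lower by perfect-match intensity. Among the higher were stalk and membrane subunits. ATP20 (subunit g) was at 9.75 in the cold and 8.08 in the control (3.17-fold). ATP7 (subunit d) stood at 8.61 in the cold and 7.04 in the control (2.96-fold), and ATP4 (subunit b) had a ratio of 1.00. ATP11, a chaperone of the catalytic head, had a ratio of 1.92. The main subunits of the head were lower by RMA. ATP1 (alpha) was at 11.98 in the cold and 12.80 in the control (1.77-fold lower). ATP2 (beta) stood at 10.86 in the cold and 11.75 in the control (1.85-fold lower). By perfect-match intensity ATP1 was 0.22 and ATP2 -0.10, so for ATP1 the sign depends on the signal used. Among 67 genes of mitochondrial ribosomal proteins, 49 lay above the 1.5-fold limit and 0 below it. Their median was 1.08 in the cold and 0.81 under pressure. Of the 67 genes 35 were above mismatch on both arrays and 10 on neither. Among those 35 genes 24 were higher and 0 lower. MRPL39, of the large mitochondrial subunit, stood at 9.24 in the cold and 6.58 in the control (6.33-fold). In carbon metabolism 3 of 30 genes of the tricarboxylic acid cycle, the glyoxylate shunt and gluconeogenesis were higher and 6 lower by RMA around a median of 0.07. By perfect-match intensity the counts were 13 higher and 1 lower, and the median was 0.53. MDH2, the cytosolic malate dehydrogenase, had 10.81 and 12.00 in the cold and the control (2.27-fold lower by RMA, with a perfect-match log2 ratio of -0.41). SDH1, a succinate dehydrogenase subunit, had levels of 8.75 in the cold and 8.06 in the control (1.61-fold).

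The proteasome degrades proteins tagged with ubiquitin. Its genes stood above the 1.5-fold limit in 29 of 36 cases and below it in 0, around a median of 1.00 (1.25 by perfect-match intensity, 1.16 under pressure), and 34 were above mismatch on both arrays. Higher members came from the lid, base and core. RPN8 of the lid stood at 8.90 in the cold and 6.43 in the control (5.57-fold). RPN13, a ubiquitin receptor, stood at 9.51 in the cold and 7.20 in the control (4.95-fold). PRE9 of the alpha ring was at 9.58 in the cold and 7.51 in the control (4.20-fold). RPT2, an ATPase of the base, stood at 8.57 in the cold and 7.39 in the control (2.27-fold). The largest subunits RPN1 and RPN2, scaffolds of the base, lay at -0.25 and -0.04, and UMP1, an assembly chaperone, at -0.52. UBI4, the polyubiquitin gene, had a ratio of 0.88. Of 29 autophagy and vacuolar protease genes 11 were higher and 0 lower. ATG8, the ubiquitin-like protein of autophagosome membranes, stood at 8.46 in the cold and 6.77 in the control (3.24-fold). PBI2, an inhibitor of the vacuolar proteinase B, stood at 12.03 in the cold and 8.38 in the control (12.6-fold). The proteases PEP4 and PRB1 had ratios of 0.09 and 0.32.

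Among phospholipid genes, 3 that act on the route to phosphatidylcholine were chosen for their values. OPI3, the methyltransferase of its last steps, had levels of 12.93 in the cold and 9.76 in the control (8.95-fold). CHO2, of the first methylation, had levels of 10.71 in the cold and 9.85 in the control (1.82-fold). CHO1, phosphatidylserine synthase, had levels of 12.24 in the cold and 11.14 in the control (2.14-fold). INO1, which makes inositol and shares their inositol-sensitive promoter element, stood at 8.77 in the cold and 6.14 in the control (at least 6.19-fold). Phospholipid genes past the limit numbered 9 of 28 on the high side and 0 on the low side, and the median was 0.55. In fatty acid synthesis ACB1, an acyl-CoA binding protein, was higher at 12.72 in the cold and 11.70 in the control (2.03-fold), and ELO1, the elongase of medium chains, had 0.66. The elongases of very long chains were lower by RMA. ELO2 was at 11.15 in the cold and 12.22 in the control (2.09-fold lower), and ELO3 at 12.66 in the cold and 13.38 in the control (1.64-fold lower). Their perfect-match ratios were -0.25 and 0.17.

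Of 29 ergosterol genes 5 were higher and 6 lower by RMA, and 12 higher and 0 lower by perfect-match intensity. ERG28, a scaffold of the demethylation complex, stood at 11.30 in the cold and 9.10 in the control (4.59-fold). ERG20, farnesyl diphosphate synthase, stood at 10.43 in the cold and 9.14 in the control (2.44-fold). CYB5, cytochrome b5, stood at 8.84 in the cold and 6.70 in the control (4.41-fold). Some enzymes of the mevalonate part were lower by RMA. ERG13, HMG-CoA synthase, was at 10.19 in the cold and 11.15 in the control (1.94-fold lower). MVD1, mevalonate diphosphate decarboxylase, stood at 8.99 in the cold and 9.91 in the control (1.89-fold lower). Their perfect-match ratios were -0.19 for ERG13 and -0.41 for MVD1, inside 1.5-fold. Of 24 sphingolipid genes 6 were higher, including the ceramidases YPC1 at 1.64 and YDC1 at 1.00 and the ceramide synthase subunits LIP1 at 1.10 and LAC1 at 0.94. The 2 lower ones were LCB1, of the first enzyme, at -0.87 and AUR1, which makes inositol phosphorylceramide, at -0.83, with perfect-match ratios of -0.17 and -0.04.

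Ribosome assembly genes were spread over both directions, with the low side larger for the small subunit. Of 50 small-subunit genes 18 lay below the limit and 4 above it, around a median of -0.34 (-0.16 by perfect-match intensity). Of 59 large-subunit genes 15 lay below the limit and 8 above it, around a median of -0.03 (0.12). By perfect-match intensity the counts were 7 below and 1 above for the small subunit, and 12 below and 9 above for the large. RRP12, an export factor for both subunits, had levels of 7.09 in the cold and 9.21 in the control (4.34-fold lower). NOP1, the methyltransferase of box C/D particles, had levels of 10.98 in the cold and 12.38 in the control (2.64-fold lower). UTP20, a large scaffold of the processome, had levels of 4.96 in the cold and 6.19 in the control (2.33-fold lower). On the large-subunit side SQT1, the chaperone of ribosomal protein L10, stood at 8.34 in the cold and 10.29 in the control (3.85-fold lower). ARX1, an export factor, stood at 6.27 in the cold and 8.13 in the control (3.63-fold lower). NMD3, the export adaptor, stood at 8.31 in the cold and 9.78 in the control (2.76-fold lower). On the high side LOC1 had a ratio of 1.32 and CGR1 one of 1.10, with cold levels of 6.09 and 6.99.

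RNA polymerase I transcribes ribosomal RNA. Of 15 of its genes 3 were higher and 4 lower, around a median of -0.01, and 1 higher and 1 lower by perfect-match intensity. RPA135 stood at 7.84 in the cold and 10.17 in the control (5.03-fold lower), and RPA190 at 7.74 in the cold and 8.39 in the control (1.57-fold lower). RPA49 and RPA14 had ratios of -1.01 and -1.06, and RPA34 one of 0.91. By perfect-match intensity RPA135 was at -1.46, while RPA190, RPA49 and RPA14 came inside 1.5-fold at -0.26, -0.42 and -0.06. For RNA polymerase II and the shared subunits 6 of 14 were higher, among them RPB10 at 10.08 in the cold and 8.14 in the control (3.84-fold), while the large subunits RPO21 and RPB2 lay at -0.42 and -0.29. Of 37 RNA helicases 10 were lower past 1.5-fold and 2 higher by RMA, and 2 and 2 by perfect-match intensity. DED1, which unwinds leaders during initiation, had 11.40 and 12.50 in the cold and the control (2.14-fold lower; -0.11 by perfect-match intensity). PRP43, of splicing and ribosome assembly, had levels of 7.59 in the cold and 8.73 in the control (2.20-fold lower). DBP2 stood at 8.23 in the cold and 11.24 in the control (at least 8.10-fold lower), with a perfect-match log2 ratio of -0.85.

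Of 47 translation factors 14 were lower and 6 higher by RMA, but the counts turned to 12 higher and 2 lower by perfect-match intensity. Their median was -0.39 by RMA and 0.14 by perfect-match intensity, which is -0.65 and -0.27 relative to all genes. RLI1, the ABC protein that recycles ribosomes, had 9.08 and 10.64 in the cold and the control (2.94-fold lower). TEF4, an elongation factor subunit, had levels of 10.43 in the cold and 11.82 in the control (2.61-fold lower). SUI2, the alpha subunit of eIF2, had levels of 8.85 in the cold and 9.91 in the control (2.09-fold lower by RMA, with a perfect-match log2 ratio of -0.23). Some small initiation factors were higher. TIF11 (eIF1A) was at 10.26 in the cold and 7.92 in the control (5.05-fold). SUI1 (eIF1) stood at 11.81 in the cold and 10.25 in the control (2.94-fold). CDC33 (eIF4E) stood at 10.97 in the cold and 9.97 in the control (2.00-fold). CAF20, a repressor that binds eIF4E, had a ratio of 1.30.

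Aminoacyl-tRNA synthetases charge transfer RNA with amino acids. Of 21 such genes 15 lay below the 1.5-fold limit and 0 above it by RMA, and 2 below and 1 above by perfect-match intensity. Their median log2 ratio was -0.86, and -0.17 by perfect-match intensity. CDC60, for leucine, had the lowest ratio, at 9.25 in the cold and 10.59 in the control (2.53-fold lower), then ALA1, for alanine, at 8.65 in the cold and 9.83 in the control (2.26-fold lower). SES1, for serine, had the highest ratio of the list, 0.40. For cytosolic ribosomal proteins 40 of 137 genes lay above the limit and 1 below it, and the median was 0.32, against 0.26 for all genes. With the arrays centred that split was 15 higher and 35 lower, so no direction is given for them. Many are encoded by near-identical pairs that probes may not separate.

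Permeases, ammonium transporters and their sensor gave 11 lower members of 26 and 1 higher by RMA (4 and 3 by perfect-match intensity), and a median of -0.38 that is 0.08 by perfect-match intensity. TAT1, for tyrosine and branched-chain amino acids, had levels of 8.32 in the cold and 10.54 in the control (4.65-fold lower). BAP2, for branched-chain amino acids, had levels of 8.53 in the cold and 10.42 in the control (3.72-fold lower). MUP1, for methionine, had levels of 10.31 in the cold and 11.77 in the control (2.75-fold lower). GAP1, the general permease, lay at -0.75. In the branched-chain pathway 8 of 11 genes lay below the limit and 0 above it, around a median of -0.97 (-0.24 by perfect-match intensity, where 4 lay below and 1 above). ILV2, acetolactate synthase, at the pathway's entry, stood at 9.18 in the cold and 11.02 in the control (3.58-fold lower). LEU1, isopropylmalate isomerase, stood at 9.45 in the cold and 11.18 in the control (3.34-fold lower). BAT1, the mitochondrial transaminase, stood at 10.66 in the cold and 12.06 in the control (2.64-fold lower). ILV6, the regulatory subunit of the same synthase as ILV2, had -0.97 in the cold and 0.12 under pressure.

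Arginine and lysine genes were lower for 8 of 17 by RMA and for 1 by perfect-match intensity. The lower members include CAR1 and CAR2, of arginine breakdown, with ratios of -1.51 and -1.13 by RMA and -0.84 and -0.17 by perfect-match intensity. MET16, which reduces activated sulfate, was at 8.91 in the cold and 7.08 in the control (3.54-fold). MET14, the kinase before it, stood at 9.84 in the cold and 8.36 in the control (2.78-fold). CYS3, which makes cysteine, stood at 11.41 in the cold and 12.25 in the control (1.80-fold lower by RMA, with a perfect-match log2 ratio of 0.02). Over the 27 genes of sulfate assimilation and methionine 7 were higher and 3 lower, a smaller share of higher genes than over all genes. GDH1, the main glutamate-forming dehydrogenase, had 11.47 and 12.76 in the cold and the control (2.45-fold lower by RMA, with a perfect-match log2 ratio of -0.39), and a ratio of 0.02 under pressure.

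Nucleotide genes included as lower members 11 of 26 purine genes and 10 of 23 pyrimidine genes, and as higher members 6 and 5. Their medians were -0.15 and -0.18 by RMA, and 0.20 and 0.32 by perfect-match intensity, so the sign of both depends on the signal. Their counts by perfect-match intensity were 8 higher and 4 lower for purines and 6 higher and 4 lower for pyrimidines. GUA1, GMP synthase, stood at 10.17 in the cold and 12.12 in the control (3.85-fold lower). IMD4, an IMP dehydrogenase, stood at 10.55 in the cold and 12.22 in the control (3.19-fold lower). IMD2, its inducible paralogue, stood at 11.11 in the cold and 9.78 in the control (2.52-fold higher). AAH1, adenine deaminase, differed by -2.56 on the log2 scale (at least 5.92-fold lower). In the pyrimidine pathway URA2, the first enzyme, stood at 7.46 in the cold and 9.47 in the control (4.05-fold lower). URA7, the main CTP synthase, stood at 8.38 in the cold and 10.54 in the control (4.48-fold lower). FUI1, the uridine permease, stood at 8.89 in the cold and 10.92 in the control (4.09-fold lower). URA10, the minor orotate phosphoribosyltransferase, stood at 8.24 in the cold and 5.42 in the control (7.02-fold higher). URA5, the major form, stood at 10.77 in the cold and 11.46 in the control (1.61-fold lower, but 0.32 on the log2 scale by perfect-match intensity). MIS1, the mitochondrial one-carbon enzyme that supplies formate to purine synthesis, was at 6.80 in the cold and 9.02 in the control (4.64-fold lower).

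**Figure D4:**
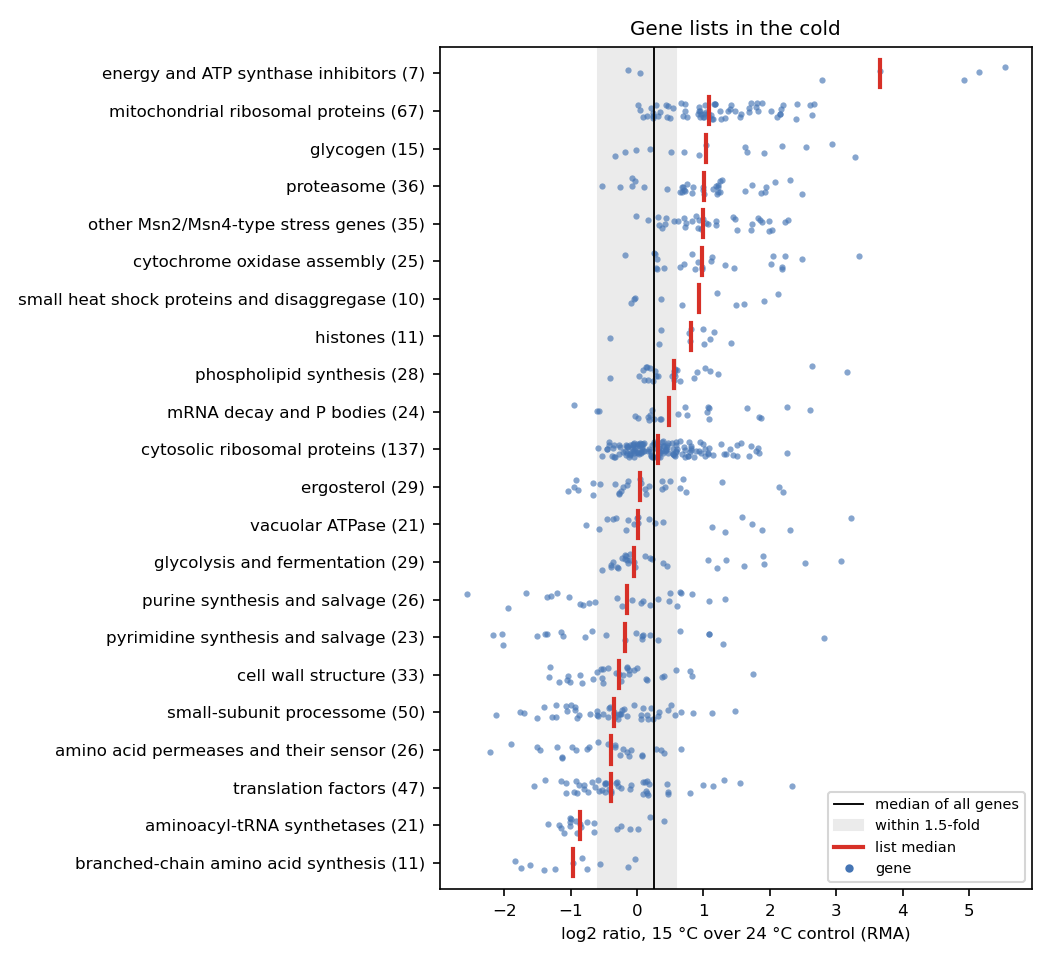
Log2 ratio of the 15 °C array over the 24 °C control for the members of 22 gene lists, with the number of measured genes in brackets, ordered by median. Points are genes, red bars list medians, the black line the median of all genes (0.26) and the grey band 1.5-fold. The mixed list of energy regulators, whose median is the ratio of PBI2, stands highest at 3.66. Branched-chain amino acid synthesis stands lowest at -0.97.

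Several counts above are near those of all genes. The 34.8% higher past 1.5-fold is a share of genes past the level limit, so members past that limit are counted here. Phospholipid synthesis (9 of 26), sphingolipids (6 of 24), cytosolic ribosomal proteins (40 of 137) and sulfate assimilation (7 of 27) had shares near or below it. The same holds for the cell cycle (11 of 29), vacuolar pump (6 of 19) and signalling (9 of 28) lists given next. Those counts are therefore no result about the lists. Autophagy (11 of 22) and the hexose transporters (6 of 13) had larger shares. With the arrays centred autophagy had 8 higher and 5 lower, and the hexose transporters 4 higher and 6 lower.

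Core histone genes were higher for 7 of 8. Over the 11 genes of the histone list 7 were higher and 0 lower. That split was 1 higher and 1 lower with the arrays centred. It was 4 higher and 1 lower with a trend on gene length, described below, taken out. HHF1 and HHF2, both for histone H4, stood at 12.09 in the cold and 10.68 in the control for HHF1 and 11.61 in the cold and 10.51 in the control for HHF2, and HTA1, for H2A, at 13.10 in the cold and 12.10 in the control (2.00-fold). HTB2, for H2B, lay at -0.41 while the other H2B gene, HTB1, had 1.01. Copies of a histone share most of their coding sequence, so probes may read both. Among 35 cell cycle genes, 11 lay above the 1.5-fold limit and 0 below it, with CLN1, a G1 cyclin, at 0.86 and its paralogue CLN2 at -0.25. With the arrays centred the split was 1 higher and 8 lower, and after quantile normalization 2 higher and 6 lower. No direction is therefore given for the cell cycle list.

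By RMA, chaperones of the cytoskeleton separated into their 2 machines, a grouping made after the values were seen. All 6 prefoldin subunits, which deliver actin and tubulin to the chaperonin, were higher, with ratios from 0.61 (PAC10) to 2.27 (GIM4), although 2 of them were above mismatch on both arrays. GIM4 had levels of 8.49 in the cold and 6.22 in the control. The 8 subunits of the CCT chaperonin lay between -0.88 (CCT2) and 0.18 (CCT7), with 4 lower past 1.5-fold by RMA. By perfect-match intensity the prefoldin subunits lay between 0.40 and 1.50. On that scale the CCT subunits lay between -0.56 and 0.70, so the ranges overlapped and no CCT subunit was lower past 1.5-fold. Their substrates were inside 1.5-fold, ACT1, actin, at -0.08 and TUB1, alpha tubulin, at -0.50. Prefoldin genes are 330 to 600 bp long and CCT genes 1584 to 1707 bp. A second such grouping gave 7 of 7 Lsm proteins of mRNA decay and splicing higher, although 4 of them were above mismatch on both arrays. Their genes are 261 to 564 bp long. LSM7 was at 8.46 in the cold and 5.86 in the control (6.06-fold). LSM6 stood at 8.80 in the cold and 7.72 in the control (2.12-fold). XRN1, the exonuclease that follows decapping, had a ratio of -0.59. Among 11 importins and exportins, also grouped after their values were seen, 7 were lower. Their median was -0.62 by RMA and -0.08 by perfect-match intensity, and their genes are 1629 to 3675 bp long. KAP123, which carries ribosomal proteins into the nucleus, stood at 8.75 in the cold and 10.55 in the control (3.49-fold lower).

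Among 21 genes of the proton pump that acidifies the vacuole, 6 lay above the 1.5-fold limit and 1 below it. VMA8 and VMA7, of the rotary stalk and the head, stood at 10.11 in the cold and 7.81 in the control for VMA8 (4.93-fold) and 10.95 in the cold and 9.07 in the control for VMA7 (3.68-fold). VMA10, of the peripheral stalk, was at 12.35 in the cold and 9.13 in the control (at least 9.34-fold). VMA1 and VMA2, the catalytic and regulatory subunits of the head, had ratios of -0.44 and -0.17, and VMA3, of the membrane ring, -0.01.

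Among 31 genes of cAMP, TOR and stress signalling, 9 lay above the 1.5-fold limit and 1 below it, with a median of 0.24, which is no larger a share or median than over all genes. RAS2, a GTPase that activates the cAMP pathway, was at 7.60 in the cold and 6.12 in the control (2.80-fold). BCY1, the regulatory subunit of protein kinase A, had a ratio of 0.37. SCH9, a growth-promoting kinase downstream of TORC1, was at 8.01 in the cold and 8.90 in the control (1.85-fold lower by RMA, with a perfect-match log2 ratio of -0.36).

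Among genes that respond to oxygen, heme and metals, 12 of 28 hypoxic and heme-regulated genes were higher and 3 lower. The share among members past the level limit was 12 of 25, against 34.8% over all such genes. Only 15 members were above mismatch on both arrays, and 5 of those lay above the 1.5-fold limit and 3 below it. Their median log2 ratio was -0.09. Centring changed the split to 6 higher against 11 lower, quantile normalization to 8 against 6, and perfect-match intensity to 17 against 0. No direction is therefore given for the hypoxic list. HEM13, coproporphyrinogen oxidase, an oxygen-dependent step induced at low oxygen, stood at 11.82 in the cold and 9.57 in the control (4.76-fold). ANB1, the hypoxic eIF5A gene, was bright on both arrays at 12.30 in the cold and 12.39 in the control, and its partner HYP2 is close enough in sequence for probes to read both. DAN1, a wall mannoprotein of cells without oxygen, was at 9.73 in the cold and 7.02 in the control (at least 6.51-fold). FET4, a low-affinity iron transporter, stood at 9.61 in the cold and 7.60 in the control (4.01-fold). The high-affinity iron uptake pair was lower. FET3, the oxidase, was at 10.40 in the cold and 11.61 in the control (2.32-fold lower), and FTR1, the permease, at 9.12 in the cold and 10.06 in the control (1.92-fold lower). By perfect-match intensity they were inside 1.5-fold at -0.23 and -0.16. Their pressure ratios were -3.83 and -2.16. ATX1, a copper chaperone, stood at 10.93 in the cold and 8.45 in the control (at least 5.59-fold). CUP1-1, the copper metallothionein, was at 12.14 in the cold and 10.38 in the control (3.38-fold).

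Of 33 structural wall genes 10 lay below the limit and 4 above it, TIP1 included, but by perfect-match intensity 1 lay below and 8 above. The median was -0.27 by RMA and 0.34 by perfect-match intensity. FKS1, the glucan synthase subunit of growing cells, stood at 10.73 in the cold and 11.90 in the control (2.25-fold lower). GAS1, a glucan-remodelling enzyme, stood at 11.42 in the cold and 12.47 in the control (2.06-fold lower). CRH1, which links chitin to glucan, stood at 10.10 in the cold and 11.15 in the control (2.07-fold lower). By perfect-match intensity their ratios were -0.23, -0.11 and -0.31.

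Of 16 mating genes 5 were lower and 0 higher by RMA, against 4 higher and 4 lower by perfect-match intensity. SAG1, the alpha-agglutinin by which alpha cells adhere, had 10.24 and 11.96 in the cold and the control (3.27-fold lower). AGA1, the anchor of the a-agglutinin, had levels of 9.63 in the cold and 11.28 in the control (3.15-fold lower). MF(ALPHA)2, the minor alpha-factor gene, had levels of 10.94 in the cold and 12.36 in the control (2.66-fold lower). PRM7, a pheromone-regulated membrane protein, had the lowest ratio of any gene above mismatch on both arrays, with levels of 7.56 in the cold and 10.51 in the control (7.75-fold lower). Under pressure SAG1, AGA1 and MF(ALPHA)2 lay at 0.05, -0.18 and 0.22, and PRM7 at -3.05. The perfect-match ratios in the cold were -0.59 for SAG1, -0.28 for AGA1 and -0.68 for MF(ALPHA)2.

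Of the genes past the level limit 28.0% belong to a list, and several of the highest and lowest ratios lie outside. PIC2, a mitochondrial copper and phosphate carrier, stood at 11.81 in the cold and 8.75 in the control (8.37-fold). MDM35, which carries lipid transfer proteins between mitochondrial membranes, stood at 9.46 in the cold and 6.63 in the control (7.09-fold). SSS1, of the protein channel of the endoplasmic reticulum, was at 9.66 in the cold and 7.24 in the control (5.38-fold). SRP14, of the signal recognition particle, stood at 8.27 in the cold and 5.77 in the control (5.66-fold). YHR138C, described in the files as homologous to PBI2, stood at 9.34 in the cold and 6.48 in the control (7.28-fold). CHP1 stood at 10.21 in the cold and 7.41 in the control. Low ratios also lay outside the lists. DPH2, of diphthamide synthesis, was at 7.22 in the cold and 9.29 in the control (4.22-fold lower). AQR1, a transporter of acids and drugs, stood at 8.04 in the cold and 10.04 in the control. MEU1, methylthioadenosine phosphorylase, was at 8.28 in the cold and 10.16 in the control. NCA3 stood at 8.96 in the cold and 10.78 in the control. BSC1 lay at 5.81 in the cold and 8.46 in the control, with a cold level not above mismatch.

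The ratio moved with gene length over the whole array. Genes of known length, 4551 in all, were put in 5 equal classes. In the shortest class, 78 to 633 bp, the median log2 ratio was 0.72 and 56.5% were higher past 1.5-fold. In the longest class, 1965 to 9807 bp, the median was 0.03, 16.8% were higher and 17.3% lower. Spearman's rank correlation between ratio and length across genes was -0.36, given as a description of genes that share 2 arrays. The same order held with perfect-match intensities, 0.88 in the shortest class and 0.25 in the longest, and under pressure, 0.57 and -0.03. Several lists above consist of short genes, among them the energy regulators with a median of 261 bp, histones with 399 bp and cytochrome oxidase assembly with 456 bp, while aminoacyl-tRNA synthetases have 1857 bp. With a smooth trend on length taken out, list medians were 3.37 for energy regulators, 1.25 for glycogen, 0.97 for Msn2 and Msn4 stress genes, 0.89 for mitochondrial ribosomal proteins, 0.83 for the proteasome and 0.49 for histones. Those of aminoacyl-tRNA synthetases and branched-chain synthesis were -0.76 and -1.13. Complexes III and IV came to 0.27 and ATP synthase genes to 0.17, which is 0.01 and -0.09 relative to all genes. The part of gene length in these ratios beyond that correction was not tested.

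**Figure D5:**
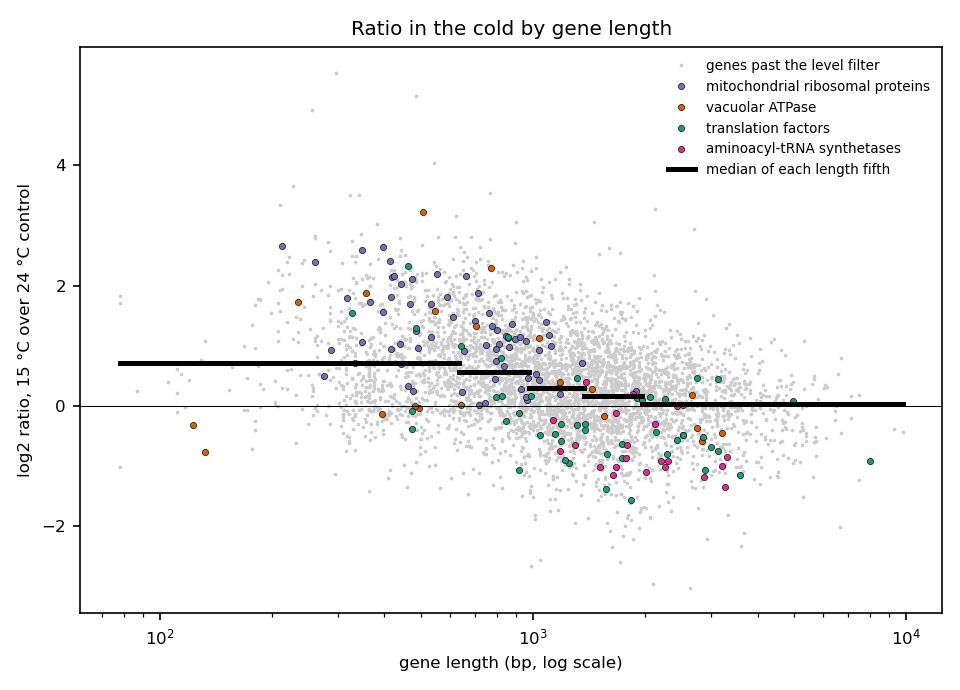
Log2 ratio of the 15 °C array over the 24 °C control against gene length in base pairs (log scale) for genes past the level limit, with 4 lists in colour and black bars at the median of each of 5 length classes. The medians step down from 0.72 in the shortest class to 0.03 in the longest.

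Signal level moved with the ratio in a way that depends on the values used. In the dimmest of 5 equal classes of genes the median log2 ratio was 0.42 by RMA and 0.37 by perfect-match intensity, and in the brightest class -0.04 and 0.65. Lists of bright genes, such as those of glycolysis, translation and the cell wall, accordingly had lower medians by RMA than by perfect-match intensity. The median ratio per nuclear chromosome lay between 0.13 and 0.35, and 8 genes of the mitochondrial genome had a median of -0.27.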

How the data were processed

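RNA pooled from 3 cultures per condition was hybridised to 1 single-colour NimbleGen array each. The deposited log2 levels come from the authors' robust multiarray average with quantile normalization, per the labels, with no version stated and without stating whether the arrays were normalized together. The deposited tables per array hold, per the file headers, the mean intensity of 15 perfect-match and 15 mismatch probes and, as a ratio, the standard deviation over probes divided by that mean. Rows of a gene were averaged. Names came from the files and the R64 gene table, with 1723 rows matched by locus tag, 3950 by symbol, 156 by synonym and 508 unmatched. The log2 ratio is the level at 15 °C minus the level at 24 °C, and a gene was called past 1.5-fold where its higher level reached the 25th percentile of its array. A gene was above mismatch where the mean difference divided by its standard error over 15 probe pairs exceeded 1.76 (14 degrees of freedom). Single arrays allow no test, SE or p-value, and the spread between cultures is unknown. The counting rule was run on simulated data with known shifts and no offset between arrays, so that run says nothing about the scaling. Members and lists were chosen with earlier results of these data known. Named genes were drawn from the 20 highest and lowest ratios above mismatch on both arrays, the 10 on 1 array, and members of lists or pairs, and not all of them are named. Python 3.11.15, pandas 2.3.3, SciPy 1.17.1 and statsmodels 0.14.6 were used. The alternatives tried were perfect-match intensity, centring, quantile normalization of gene levels, other filters, the brightest row per gene, a length correction and a 2-fold threshold.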

Additional observations from a re-analysis of the deposited data

How the results depend on the processing

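The number of genes higher past 1.5-fold was 1695 with the deposited levels. It was 717 with the arrays centred, 991 after quantile normalization, 919 among genes above mismatch on both arrays, and 918 at 2-fold. The number lower was 468, and it was 1518 with the arrays centred, 969 after quantile normalization, 113 by perfect-match intensity and 183 at 2-fold. The all-gene median of 0.26 reversed to -0.29 with the arrays centred and to -0.073 after quantile normalization. With the arrays centred these list medians stayed positive but came inside 1.5-fold: cold-shock markers 0.55, glycogen 0.49, small heat shock proteins 0.39, Msn2 and Msn4 stress genes 0.44, cytochrome oxidase assembly 0.43, proteasome 0.45, histones 0.26 and mitochondrial ribosomal proteins 0.53. Centring takes the same 0.55 from every gene. Counts of lists with smaller medians moved too, to 5 higher and 7 lower for the vacuolar pump and 3 and 7 for signalling. Glycogen came to 0.54 after quantile normalization, cold-shock markers to 0.57 over members above mismatch on both arrays, and histones to 0.49 without the length trend. By perfect-match intensity the medians of aminoacyl-tRNA synthetases and of branched-chain synthesis were -0.17 and -0.24, and 6 named genes reversed, SSB1 to 0.013, SSB2 to 0.14, ATP1 to 0.22, ELO3 to 0.17, CYS3 to 0.021 and URA5 to 0.32. Of 80 named genes lower past 1.5-fold, 38 stayed past it, 36 kept their sign inside it and 6 are those just given. The cause was not tested. The median of the mixed list of energy regulators stayed past 1.5-fold under every alternative run. That list has 7 members chosen with earlier results of these data known. Its median with the deposited levels is the ratio of PBI2, so its rank and stability are no independent support. The stress, hypoxic or glucose-repressed form led in 25 to 29 of 32 pairs under the scalings run. No paired analysis was possible because each condition has 1 array. The planned search for promoter motifs was not run, since no promoter sequences were used here. Signal over mismatch limits what can be said of dim genes: 2095 of 6270 genes were above mismatch on neither array.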

Other observations

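Among 15 genes of glycerol and the NADH shuttles, 4 lay above the 1.5-fold limit and 1 below it. GPD1, the glycerol-3-phosphate dehydrogenase induced by osmotic stress, had log2 levels of 11.12 in the cold and 10.19 in the control (1.91-fold), and GPP2, the stress form of the phosphatase that follows it, had 10.53 in the cold and 9.63 in the control (1.86-fold). GPP1, the constitutive form, stood at 12.43 in the cold and 12.45 in the control, inside 1.5-fold. NDE1, an external NADH dehydrogenase of mitochondria, was at 8.30 in the cold and 10.06 in the control (at least 3.38-fold lower), with a perfect-match log2 ratio of -0.25.

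Of 26 genes of glucose-repressed carbon use 7 were higher and 2 lower, and 6 were above mismatch on both arrays. Of 20 genes of peroxisomal beta-oxidation 4 were higher and 0 lower, and 6 were above mismatch on both arrays. PCK1 and FBP1, of gluconeogenesis, and POX1, FOX2 and POT1, of peroxisomal beta-oxidation, were above mismatch on neither array. Of 18 phosphate genes 6 were higher and 3 lower by RMA. PHO5, a secreted acid phosphatase, stood at 9.81 in the cold and 8.67 in the control (2.21-fold), and PHO84, the high-affinity transporter, at 12.05 in the cold and 12.79 in the control (1.67-fold lower, with a perfect-match log2 ratio of -0.07). PHO3, the acid phosphatase regulated by thiamine, had levels of 8.23 in the cold and 10.10 in the control (3.65-fold lower). Among 17 thiamine and pyridoxine genes, 7 lay above the 1.5-fold limit and 2 below it. Over all genes past the level limit 34.8% were higher and 9.6% lower. Members past that limit and higher were 4 of 15 for glycerol and the NADH shuttles and 7 of 19 for glucose-repressed carbon use. They were 4 of 12 for beta-oxidation, 6 of 17 for phosphate and 7 of 17 for thiamine and pyridoxine. None of these counts is read as a result about its list.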
